A study of Mus musculus with 4 samples.

Results

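Cholangiocytes are the epithelial cells that line the bile ducts, and the levels of 6 genes that mark them were examined in whole liver. The 6 genes were Krt19, Krt7, Epcam, Sox9, Spp1 and Cftr, taken by symbol from the 46603 Ensembl gene identifiers of the count table, and all 6 were found. Total liver RNA of 4 male mice was sequenced as 1 library per mouse, and the reads counted on each gene are the measurement. All 4 mice were HuR flox/flox on the C57BL/6 J background and had been on WDSW, a Western diet given together with a drink of fructose and glucose, over 4 weeks. Mice 1 and 2 were the controls, which received AAV8-TBGP-GFP, a viral vector that carries a fluorescent protein. Mice 3 and 4 were labelled HuR hKO (called hKO-labelled mice in what follows) and received AAV8-TBGP-Cre by the tail vein. The thyroxine-binding globulin promoter (TBGP) drives the recombinase in hepatocytes, so the vector was designed for the parenchymal cells and not for the bile ducts. The mice were matched for age, which the labels do not give, and a group fed another diet was not analysed here.

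Cholangiocytes modify the bile that hepatocytes secrete, by moving chloride, bicarbonate, water and bile acids across the duct wall, and they sense its flow with a primary cilium. They make up a small fraction of the cells of a liver, and the keratins by which they are recognised are not made by mature hepatocytes. In many forms of chronic liver injury, cells with biliary markers increase around the portal tracts, a change known as the ductular reaction. In RNA from a whole piece of liver, fewer cells of a type and less RNA per cell cannot be told apart, and the amount of large duct that was sampled enters the level of every gene of the duct.

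The libraries held between 13032095 and 19715577 counts on genes, and edgeR's TMM factors lay between 0.957 and 1.04. Levels are given as CPM, counts relative to the TMM-scaled library size, with an exact 95% Poisson interval for counting error where a library is described on its own, and 3 counts, the limit that a count of 0 allows, correspond to between 0.159 and 0.226 CPM. Elavl1, the gene that encodes the RNA-binding protein HuR and that Cre was meant to delete, had 377 and 347 counts in the controls and 541 and 648 counts in the hKO-labelled mice. Its log2 fold change was 0.41 (SE 0.135, adjusted p = 0.545, edgeR's quasi-likelihood test). The targeted gene was thus not lower in the hKO-labelled mice in these whole-liver counts, though the difference was not called. The authors reported reduced HuR mRNA and protein in livers of their HuR hKO mice. The reason for the difference was not tested, and directions below follow the labels only. Hepatocyte genes were abundant in every library: 7 of them, Alb among them with between 40983 and 45366 CPM, summed to between 60214 and 68060 CPM.

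Krt19 and Krt7 were higher in control mouse 1 than in the other 3 libraries by more than counting error. Epcam and Cftr also had their highest value there, but the intervals overlapped, with that of mouse 4 for Epcam and with the other 3 libraries for Cftr. Overlap of 2 intervals does not show that libraries are equal within counting error, and these differences were not tested. Sox9 and Spp1 were highest in mouse 4. Summed over all 6 genes, mice 1 to 4 had 52.8, 27.6, 39.6 and 49.8 CPM, so control mouse 1 was only 1.06 times mouse 4 and most of each sum was Spp1. Summed over Krt19, Krt7, Epcam and Cftr, which were put together because they were highest in control mouse 1, control mouse 1 had 18.7 CPM (95% interval 16.5 to 21.2), control mouse 2 had 2.17 CPM (1.45 to 3.11), and mice 3 and 4 had 2.23 CPM (1.53 to 3.15) and 4.46 CPM (3.56 to 5.52). That order was fixed by the choice of genes, and Krt19 supplied 12.2 of the 18.7 CPM. Summed over Sox9 and Spp1, the same libraries had 34.1, 25.4, 37.4 and 45.3 CPM, and mouse 4 was the highest. Of the 6 genes, 4 had their highest level in control mouse 1, where 29.1% of the 13001 genes tested had theirs. Krt7 and Cftr, among these 4, did not pass the filter on low counts that all 13001 passed, so the shares are over unlike sets.

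Krt19 encodes keratin 19, an intermediate filament protein of duct epithelium and a widely used marker of cholangiocytes. Its identifier is ENSMUSG00000020911, and it lies on the minus strand of chromosome 11 (chr11:100140810-100148665, GRCm38, GENCODE M21). It had 162 counts in control mouse 1, 5 in control mouse 2, 7 in mouse 3 and 34 in mouse 4. These counts correspond to 12.2 CPM (10.4 to 14.2), 0.373 CPM (0.121 to 0.871), 0.488 CPM (0.196 to 1.01) and 1.81 CPM (1.25 to 2.52). Control mouse 1 was therefore 6.75 times as high as mouse 4 and held 82.1% of the summed level of the gene. The controls lay at both ends, and the hKO-labelled mice lay between them. The interval of mouse 4 did not meet that of mouse 2 or mouse 3, so Krt19 also differed by more than counting error between the hKO-labelled mice.

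Krt7 encodes keratin 7, a second duct keratin (ENSMUSG00000023039, plus strand, chr15:101411043-101430313). It had 35 counts in control mouse 1, 9 in control mouse 2, 8 in mouse 3 and 13 in mouse 4. The levels were 2.63 CPM (1.84 to 3.66), 0.672 CPM (0.307 to 1.28), 0.558 CPM (0.241 to 1.10) and 0.690 CPM (0.368 to 1.18). Control mouse 1 was 3.82 times the next library, and the other 3 had intervals that overlapped one another. Krt7 did not pass the filter on low counts, and an antisense gene, Gm671, overlaps its exons.

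Epcam encodes the epithelial cell adhesion molecule, which is found on cholangiocytes and hepatic progenitor cells (ENSMUSG00000045394, plus strand, chr17:87635979-87651129). It had 48 counts in control mouse 1, 15 in control mouse 2, 17 in mouse 3 and 37 in mouse 4. The levels were 3.61 CPM (2.66 to 4.79), 1.12 CPM (0.627 to 1.85), 1.19 CPM (0.691 to 1.90) and 1.96 CPM (1.38 to 2.71). Control mouse 1 was 1.84 times mouse 4, and its interval touched that of mouse 4 but not those of mice 2 and 3. The excess in control mouse 1 was thus smaller for Epcam than for Krt19 or Krt7.

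Cftr encodes the chloride channel of the apical membrane through which cholangiocytes secrete chloride into bile (ENSMUSG00000041301, plus strand, chr6:18170687-18322768). It had 4 counts in control mouse 1 and 0 counts in each of the other 3 libraries. The level in control mouse 1 was 0.301 CPM (0.0820 to 0.771), and a count of 0, taken as up to 3 counts, allows up to 0.224, 0.209 and 0.159 CPM in mice 2, 3 and 4. The interval of control mouse 1 reached below these limits, and whether Cftr differed between libraries by more than counting error was not tested. An antisense gene, Gm15592, overlaps the exons of Cftr, and Cftr did not pass the filter on low counts.

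Sox9 encodes a transcription factor of the biliary lineage that is also made by some hepatocytes next to the portal tract (ENSMUSG00000000567, plus strand, chr11:112782224-112787760). It had 34 counts in control mouse 1, 41 in control mouse 2, 37 in mouse 3 and 65 in mouse 4. The levels of 2.56 CPM (1.77 to 3.58), 3.06 CPM (2.20 to 4.15), 2.58 CPM (1.82 to 3.56) and 3.45 CPM (2.66 to 4.40) overlapped throughout, and control mouse 1 was the lowest.

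Spp1 encodes osteopontin, a secreted phosphoprotein of cholangiocytes that macrophages and stellate cells can also make (ENSMUSG00000029304, plus strand, chr5:104435118-104441050). It had 419 counts in control mouse 1, 299 in control mouse 2, 499 in mouse 3 and 789 in mouse 4. The levels were 31.5 CPM (28.6 to 34.7), 22.3 CPM (19.9 to 25), 34.8 CPM (31.8 to 38.0) and 41.9 CPM (39.0 to 44.9). Both hKO-labelled mice exceeded both controls, although the intervals of control mouse 1 and mouse 3 overlapped. A gene model of unknown type on the same strand, Gm42793, overlaps the exons of Spp1.

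**Figure D1:**
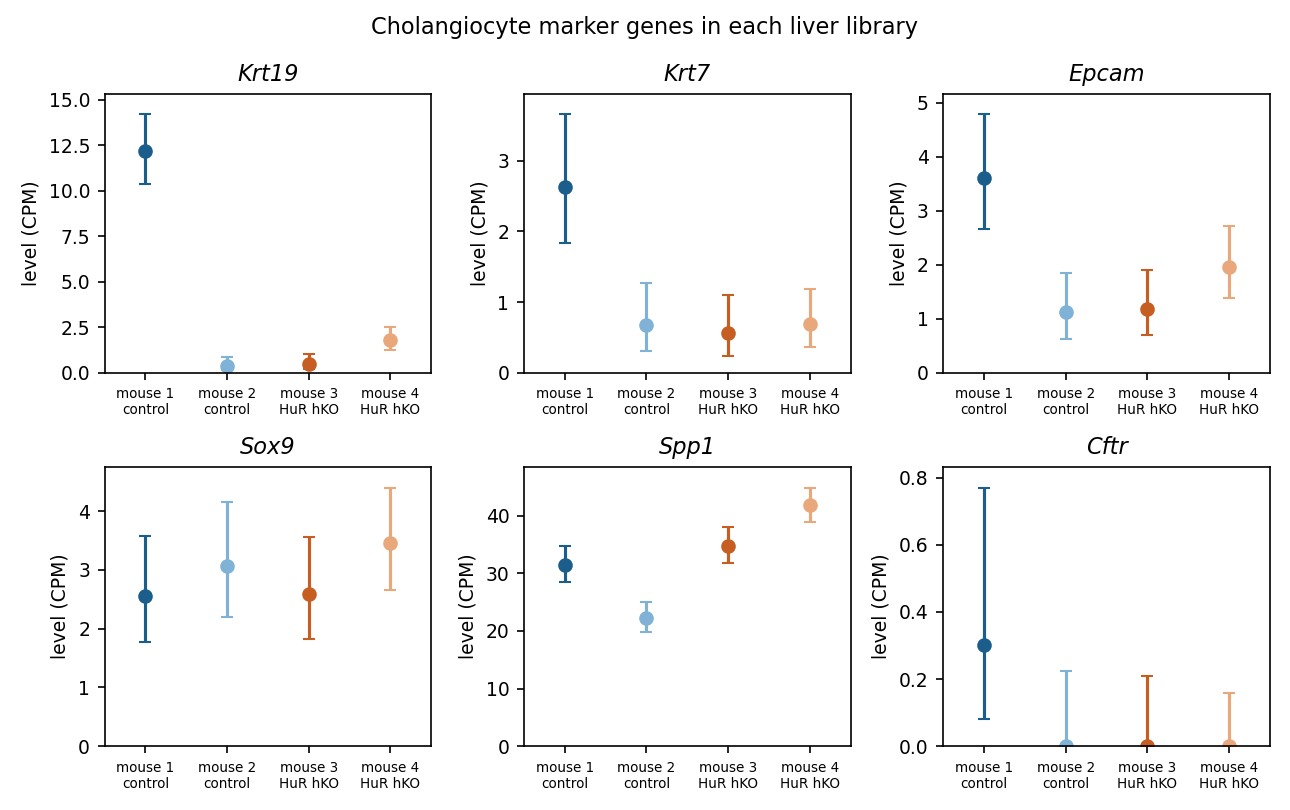
Level of each of the 6 marker genes in each library, in CPM on the TMM-scaled library size, with an exact 95% Poisson interval as the bar, or for a count of 0 a bar up to the level of 3 counts. Each panel has its own scale from 0. Control mouse 1 stands above the other 3 libraries for Krt19 and Krt7, its bar for Epcam meets that of mouse 4, it is the only library with counts of Cftr, and it is not the highest for Sox9 or Spp1.

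Promoter sequences are shown for 4 of the genes: Krt7, Epcam and Cftr, which were highest in control mouse 1, and Spp1, which was not. They run from 250 bases before to 50 bases after the RefSeq start (GRCm38.p6), and RefSeq promoters were matched for 4 of the 6 genes, while those of Krt19 and Sox9 were not used here. The windows are chr15:101412153-101412452 for Krt7, chr17:87635729-87636028 for Epcam, chr6:18170437-18170736 for Cftr and chr5:104434861-104435160 for the first start of Spp1, all on the plus strand and written 5′ to 3′. The capitals mark matches on either strand to 5 short motifs, which were the TATA box TATAAA, its variant ATAAAA, the KLF motif CCACCC, the TEAD motif GGAATG and the RBPJ motif TGGGAA. The motifs were chosen after the letters were seen, and TATAAA and ATAAAA can overlap by all but 1 of their bases.
Krt7: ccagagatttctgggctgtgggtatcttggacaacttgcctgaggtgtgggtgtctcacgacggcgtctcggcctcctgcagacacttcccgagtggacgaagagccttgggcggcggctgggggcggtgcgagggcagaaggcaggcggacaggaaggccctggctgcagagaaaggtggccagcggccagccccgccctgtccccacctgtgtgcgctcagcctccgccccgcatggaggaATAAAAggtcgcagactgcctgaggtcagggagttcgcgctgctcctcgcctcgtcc
Epcam: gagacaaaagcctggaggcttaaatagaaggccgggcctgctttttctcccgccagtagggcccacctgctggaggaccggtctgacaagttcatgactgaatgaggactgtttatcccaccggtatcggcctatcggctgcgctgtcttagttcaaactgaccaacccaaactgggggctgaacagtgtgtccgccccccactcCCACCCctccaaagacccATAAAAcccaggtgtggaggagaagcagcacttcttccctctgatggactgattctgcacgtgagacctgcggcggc
Cftr: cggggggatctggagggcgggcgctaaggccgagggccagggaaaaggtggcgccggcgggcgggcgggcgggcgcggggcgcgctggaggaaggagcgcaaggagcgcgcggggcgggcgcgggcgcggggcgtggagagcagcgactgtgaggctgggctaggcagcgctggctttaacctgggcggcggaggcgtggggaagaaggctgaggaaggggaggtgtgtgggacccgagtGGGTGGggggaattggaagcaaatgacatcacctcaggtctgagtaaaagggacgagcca
Spp1: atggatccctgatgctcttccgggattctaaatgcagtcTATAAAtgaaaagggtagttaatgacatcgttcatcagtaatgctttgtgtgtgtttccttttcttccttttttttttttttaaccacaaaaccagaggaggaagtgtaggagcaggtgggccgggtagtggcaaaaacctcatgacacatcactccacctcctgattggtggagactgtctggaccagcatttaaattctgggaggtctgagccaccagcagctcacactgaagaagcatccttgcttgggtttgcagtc

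The Krt7 window held ATAAAA 7 bases before the start, and the Epcam window held it 27 bases before the start. ATAAAA is present in 18.5% of all 32851 promoters of this length. CCACCC lay 45 bases before the start of Epcam and, on the reverse strand, 10 bases before that of Cftr, and 31.5% of all promoters hold it. The Spp1 window held TATAAA 211 bases before the start, a motif that 13.6% of all promoters hold. The window of another RefSeq start of Spp1, not shown, held ATAAAA on the reverse strand, 186 bases before that start. GGAATG and TGGGAA, which 14.7% and 25.6% of all promoters hold, had no match in the 4 windows. Base composition differed among them, with 71.3% G and C for Cftr, 66.3% for Krt7, 57.0% for Epcam and 45.3% for Spp1. None of the 5 motifs was common to Krt7, Epcam and Cftr. The RefSeq start of Krt7 lies within the GENCODE gene, downstream of its first base.

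Levels of different genes were compared per length, as CPM per kb of transcript, with the median length of the protein-coding transcripts of each gene. As a mean over the 4 libraries, Spp1 was highest with 22.8 CPM per kb (SD 5.67, n = 4), followed by Krt19 with 2.36 (SD 3.61), Epcam with 1.04 (SD 0.613), Sox9 with 0.704 (SD 0.103), Krt7 with 0.278 (SD 0.244) and Cftr with 0.0173 (SD 0.0347). Krt19, Epcam and Sox9 differed from their neighbours among these 3 by less than the SD of the higher gene, while Spp1 and Krt19, Sox9 and Krt7, and Krt7 and Cftr differed by more. The order itself changed between libraries. In control mouse 1, Krt19 was second with 7.74 CPM per kb, above Epcam with 1.91, and the intervals of the pair did not overlap. In control mouse 2, Sox9 was second with 0.740 CPM per kb and Krt19 had 0.237, below Epcam. Mouse 3 had Epcam and Sox9 side by side with 0.627 and 0.624 CPM per kb, and Krt19 had 0.310. In mouse 4 Krt19 with 1.15, Epcam with 1.04 and Sox9 with 0.834 CPM per kb had overlapping intervals between neighbours. Spp1 was first and Cftr last in each library.

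The comparison of the hKO-labelled mice with the controls asks whether the marker genes differed with the label of hepatocyte deletion under WDSW. Of the 6 genes, 4 passed edgeR's filter on low counts, and 0 had an adjusted p-value under 0.05 in edgeR's quasi-likelihood test, where 0.0231% of the 13001 genes tested did. An unadjusted p-value under 0.05 was reached by Spp1 alone, against 4.04% of all genes tested in that direction and 7.43% in either, and DESeq2 and limma-voom also called 0 of the 6. Groups that did not overlap were seen for 1 of the 6 genes, again Spp1, against 38.1% of all genes tested in either direction and 19.3% with both hKO-labelled mice above both controls.

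Spp1 averaged 26.9 CPM (SD 6.51, n = 2) in the controls and 38.4 CPM (SD 5.003, n = 2) in the hKO-labelled mice. Its log2 fold change was 0.51 (SE 0.188, unadjusted p = 0.0257, adjusted p = 0.579 by edgeR's quasi-likelihood test). The direction was kept with each library left out in turn, with log2 fold changes between 0.29 and 0.77. Sox9 averaged 2.81 CPM (SD 0.355) and 3.02 CPM (SD 0.615), with a log2 fold change of 0.11 (SE 0.312, adjusted p = 0.961 in the same test). Leaving out control mouse 1 or mouse 4 turned that small difference to -0.02 and -0.12.

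Krt19 averaged 6.28 CPM (SD 8.36, n = 2) in the controls and 1.15 CPM (SD 0.931, n = 2) in the hKO-labelled mice. The log2 fold change was -2.38 (SE 1.12, unadjusted p = 0.0663, adjusted p = 0.680 by edgeR's quasi-likelihood test), and the SD of the controls exceeded their mean. Without control mouse 1 the log2 fold change was 1.63 (adjusted p = 0.860), and without control mouse 2 it was -3.33 (adjusted p = 0.0146), the only one of the settings run in which 1 of the 6 genes was called. Epcam averaged 2.37 CPM (SD 1.76) and 1.58 CPM (SD 0.550), with a log2 fold change of -0.56 (SE 0.556, adjusted p = 0.857). Without control mouse 1 it was 0.50, and without control mouse 2 it was -1.17. The direction of Krt19 and of Epcam was thus set by which control library was kept. In these fits the lone control was assumed to vary like the other libraries.

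Krt7 and Cftr had too few counts for the fit across genes. The mean level of Krt7 was 1.65 CPM (SD 1.39, n = 2) in the controls and 0.624 CPM (SD 0.0934, n = 2) in the hKO-labelled mice (two-sided exact permutation test, p = 0.667). That of Cftr was 0.151 CPM in the controls and 0 in the hKO-labelled mice (two-sided exact permutation test, p = 1). With 2 libraries a group the smallest p-value that this test can give is 0.333.

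**Figure D2:**
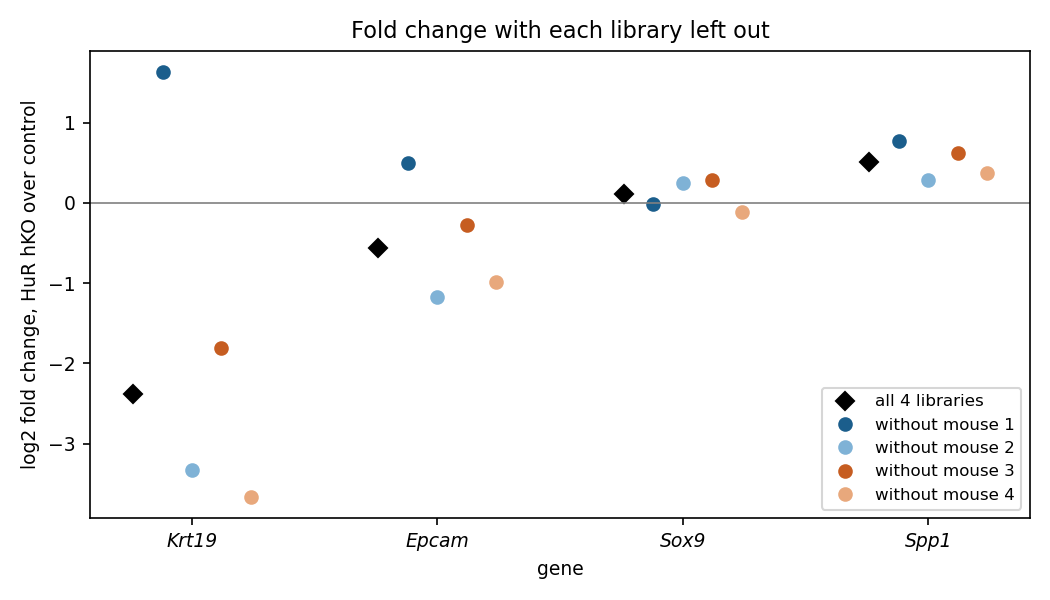
log2 fold change of the 4 marker genes that passed the filter on low counts, hKO-labelled mice over controls, with all 4 libraries (diamonds) and with each library left out in turn (circles). Krt19 runs from -3.66 to 1.63 and crosses 0 only without control mouse 1, as does Epcam between -1.17 and 0.50. Sox9 stays between -0.12 and 0.28, and Spp1 is above 0 throughout.

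A further 43 genes of the biliary epithelium and of the pathways that set its fate were examined in 5 lists. Of these, 33 passed the filter, and 12 were higher and 21 lower in the hKO-labelled mice. Their median log2 fold change was -0.11, beside 0.002 for all genes tested, and without control mouse 1 it was 0.21. None was called at an adjusted p-value under 0.05 (0 of 33 in edgeR's quasi-likelihood test, in DESeq2 and in limma-voom), and an unadjusted p-value under 0.05 was reached by 1 higher and 3 lower genes, against 4.04% and 3.39% of all genes tested. Over the libraries the division was uneven: 22 of the 42 genes with any count were highest in control mouse 1, 6 in control mouse 2, 9 in mouse 3 and 5 in mouse 4, against 29.1%, 21.9%, 22.3% and 26.7% of the genes tested. The 42 include genes that did not pass the filter, while these percentages cover only genes that did.

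Several secreted and surface proteins of epithelia were also highest in control mouse 1. Dmbt1, a secreted scavenger receptor protein of mucosal and duct epithelia, had 2745 counts in control mouse 1, 1 in control mouse 2, 4 in mouse 3 and 75 in mouse 4. Muc1, a membrane mucin, had 143, 6, 17 and 25 counts, and Cd24a, a surface glycoprotein of progenitor and duct cells, had 185, 27, 34 and 43 counts. Like Krt19, all 3 were highest in control mouse 1, by 51.9, 8.11 and 5.87 times over the next library. Prom1, a membrane protein of progenitor cells, had 39, 9, 15 and 20 counts, with control mouse 1 at 2.76 times the next library. In the list of cilium, progenitor and secreted genes, 7 of 8 were highest in control mouse 1. The 3 ciliary genes in the list were more even, since Pkhd1, Bicc1 and Pkd2, genes of cystic kidney and liver disease, had control mouse 1 at 1.06, 0.945 and 1.24 times the highest other library.

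For the comparison of the groups, Dmbt1 had a log2 fold change of -5.49 (SE 1.88, adjusted p = 0.567, edgeR's quasi-likelihood test), and Cd24a one of -1.77 (SE 0.712, adjusted p = 0.632). Muc1 had a log2 fold change of -2.14 (SE 1.01, adjusted p = 0.677). Mouse 2, the other control, was below both hKO-labelled mice for each of these 3 genes, so the groups overlapped. Without control mouse 2, the log2 fold changes of Dmbt1, Cd24a and Muc1 were -6.48, -2.58 and -3.08. The only control left in that fit was mouse 1, the library in which these 3 genes were highest. The control left without mouse 1 is mouse 2, which lay below both hKO-labelled mice. With no filter on low counts, Dmbt1 and Cd24a were called (adjusted p = 0.00267 and 0.0455, edgeR's quasi-likelihood test).

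Transcription factors of the biliary lineage differed in where they were highest. Ehf and Elf3, ETS factors of epithelia, had 35, 2, 11 and 16 counts and 41, 7, 5 and 9 counts in mice 1 to 4. Grhl2 and Klf5, which also act in epithelia, had 7, 0, 1 and 2 counts and 21, 0, 0 and 5 counts. These 4 were highest in control mouse 1. Sox4, a factor of the same family as Sox9, had 26, 32, 42 and 49 counts, and control mouse 1 was the lowest in CPM (1.96).

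Among adhesion and junction genes, 6 of the 8 with a count were highest in control mouse 1. Cldn7, a tight junction claudin, had 46, 8, 13 and 19 counts, with control mouse 1 at 3.43 times the next library. Tspan8, Ddr1 and Cdh1, the last of which encodes E-cadherin and is also made by hepatocytes, stood at 2.04, 1.56 and 1.44 times the next library. Cldn3, a claudin that hepatocytes make as well, had between 82.5 and 112 CPM and was lowest in control mouse 1. Its 77.4 CPM per kb, as a mean, was more than that of any of the 6 marker genes.

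Of the 8 genes of transport and secretion, 5 were highest in control mouse 1, and 0 of them reached 3 times the level of the next library. Aqp1, a water channel of cholangiocytes and endothelium, had 97.8, 68.9, 104 and 91.7 CPM, and Slc4a2, the anion exchanger that secretes bicarbonate, had 36.9, 34.4, 34.8 and 28.9 CPM. Slc10a2, the bile acid transporter with which ducts take up bile acids, had 7.23, 5.82, 7.47 and 5.31 CPM. Atp1b1, a subunit of the sodium pump, ranged from 41.9 to 69.0 CPM, and Slc5a1, a sodium-glucose transporter, from 0.747 to 1.81 CPM. Ano1, a calcium-activated chloride channel, had 4.14, 1.64, 2.30 and 3.504 CPM. Slc12a2, which loads the cell with chloride, had 10.7 and 7.47 CPM in the controls and 6.98 and 4.57 CPM in the hKO-labelled mice, a log2 fold change of -0.66 (SE 0.276, unadjusted p = 0.0422, adjusted p = 0.646, edgeR's quasi-likelihood test).

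The Notch, Hippo and TGF-beta pathways take part in the choice of a biliary fate by hepatoblasts and hepatocytes. Of the 12 genes of these pathways, 0 were highest in control mouse 1. Of the 10 that passed the filter, 5 were higher and 5 lower in the hKO-labelled mice, with a median log2 fold change of 0.01. Notch1, a receptor, had 14.1 and 14.0 CPM in the controls and 20.2 and 18.8 CPM in the hKO-labelled mice (log2 fold change 0.47, SE 0.146, unadjusted p = 0.0116, adjusted p = 0.510, edgeR's quasi-likelihood test). Jag1, a ligand, had 5.27, 5.82, 5.23 and 3.82 CPM, and Hes1, a target, had 7.60, 10.9, 7.88 and 7.75 CPM. Notch2, the receptor most tied to duct formation, had between 27.2 and 37.3 CPM. Yap1, an effector of the Hippo pathway, had between 67.7 and 74.2 CPM, and the related effector Wwtr1 had between 15.8 and 23.6 CPM. Ccn1, a target of both, had between 4.78 and 7.84 CPM. Ccn2, another target, had 9.33, 5.002, 9.70 and 12.5 CPM (log2 fold change 0.64, SE 0.291, adjusted p = 0.674 in the same test). Tgfb1 and its receptor Tgfbr2 had their highest levels, 13.2 and 32.6 CPM, in control mouse 2.

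**Figure D3:**
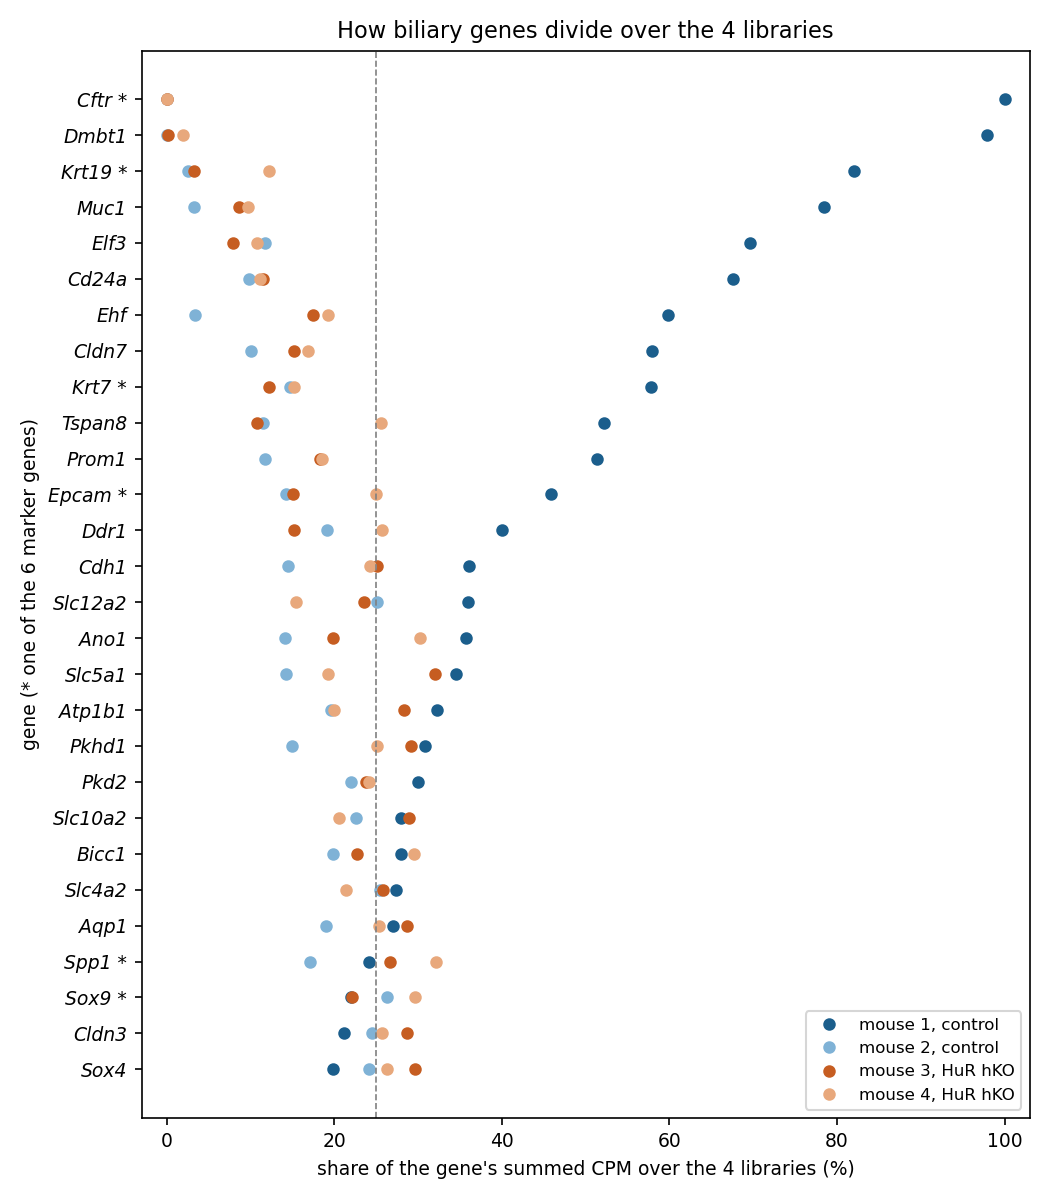
Share of the summed CPM over the 4 libraries that each library held, for the 6 marker genes (asterisks) and genes of the first 4 biliary lists with a mean of at least 1 CPM, sorted by the share of control mouse 1. The dashed line is an even share. Control mouse 1 held 97.9% of Dmbt1, 82.1% of Krt19 and 78.4% of Muc1, and 22.0% of Sox9 and 19.8% of Sox4.

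Marker genes of other cell types were summed in each library to see which moved with the duct keratins. The hepatocyte list had 64093, 62235, 60214 and 68060 CPM in mice 1 to 4. The list of portal and arterial vessels had 61.4, 21.2, 27.1 and 31.8 CPM, and within it Acta2 (275, 60, 66 and 177 counts) and Myh11 (300, 44, 29 and 130 counts), which encode the actin and myosin of smooth muscle, were highest in control mouse 1. The endothelial genes Vwf, Efnb2 and Sox17 of that list were not, and Vwf had 9.86, 7.84, 11.4 and 10.6 CPM, whereas Gja5, an arterial connexin, was (18, 10, 8 and 12 counts). In a list of 10 smooth muscle genes, chosen after these values were seen, 9 were highest in control mouse 1. Of all 13001 genes tested, 29.1% were highest there. The list holds Acta2 and Myh11 again (20.7 and 22.6 CPM in control mouse 1), so it partly repeats the list of vessels. Summed over the 10 genes, mice 1 to 4 had 94.7, 33.2, 36.6 and 55.4 CPM. Mouse 4 was second in this sum, as it was for Krt19 and Epcam.

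The genes named Muc with a number, 12 in all and also chosen afterwards, summed to 19.1, 2.17, 2.37 and 3.35 CPM. Muc1, already described, supplied 10.8 of the 19.1 CPM. Of the 12, 5 were at least 3 times as high in control mouse 1 as in any other library, Muc1 and Muc20 (1 count) among them. Of all genes with at least 30 counts there, 0.249% were, a set that leaves out Muc20. Muc6 and Muc2 were lowest in control mouse 1, with 9, 14, 13 and 36 counts and 1, 7, 2 and 2 counts. Muc4 had 39 counts there and 0 in each of the others, and Muc3 had 48, 1, 1 and 0 counts, while the gel-forming mucins Muc5ac and Muc5b had 0 in all 4 libraries. Of the 6 pancreatic genes, only Ctrb1, a chymotrypsinogen of acinar cells, had counts in control mouse 1 (54, 0, 3 and 0 counts), while mouse 3 had counts for 4 of the 6 (Pnlip 9, Cpa1 4, Ctrb1 3 and Prss2 1). The intestinal transcription factors Cdx1 and Cdx2 had 0 counts throughout, and Vil1, an actin-bundling protein of microvilli, had 21, 1, 2 and 3 counts. Fabp2, the most abundant gene of the intestinal list, was lowest in control mouse 1, with 123, 198, 170 and 242 CPM. Lgals4, a galectin of the same list, had 21.3, 32.2, 15.9 and 17.6 CPM (log2 fold change -0.67, SE 0.203, unadjusted p = 0.0103, adjusted p = 0.490, edgeR's quasi-likelihood test), and its adjusted p-value without control mouse 1 was 0.0471. The part of vessel, smooth muscle, mucin, pancreatic and intestinal genes in the levels of Krt19, Krt7, Epcam and Cftr was not tested.

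The mesothelial list summed to 229, 240, 249 and 267 CPM, nearly all of it Krt8, a keratin that hepatocytes make as well. Msln and Upk3b, which are more particular to mesothelium, had 13, 7, 16 and 17 counts and 26, 17, 22 and 59 counts. Portal fibroblast genes, which surround the ducts, summed to 18.1, 21.8, 19.5 and 30.3 CPM, and Entpd2, the most abundant of them, had 4.89, 7.09, 5.51 and 6.05 CPM. Control mouse 1 was the lowest in both sums.

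For Spp1, lists of cell types that can make osteopontin were set beside its level. Genes of lipid-associated macrophages summed to 15.6 and 12.9 CPM in the controls and to 29.2 and 22.6 CPM in the hKO-labelled mice. All 5 that passed the filter were higher in the hKO-labelled mice, where 6544 of the 13001 genes tested were, and 4 of them had an unadjusted p-value under 0.05, which 4.04% of all genes tested had in that direction. Their median log2 fold change was 0.87, beside 0.002 for all genes tested. Mmp12 and Trem2 passed the filter only through their counts in the hKO-labelled mice, so their direction was fixed by passing it. Both are among the 5 and the 4 and enter the median, which therefore cannot be read as a result about the list. None of the 5 was called after adjustment (0 of 5 in edgeR's quasi-likelihood test, in DESeq2 and in limma-voom). Mmp12, a macrophage elastase, had 3, 3, 39 and 28 counts (log2 fold change 3.16, SE 0.601, adjusted p = 0.161), and without a filter on low counts its adjusted p-value was 0.00436. Cd63 and Cd9, tetraspanins, had log2 fold changes of 0.87 and 0.63 (adjusted p = 0.362 and 0.653), and Trem2, a lipid receptor, had 4, 2, 12 and 15 counts (adjusted p = 0.574), all in the same test.

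Stellate cell genes summed to 130, 128, 143 and 172 CPM, with 7 of 8 higher in the hKO-labelled mice and a median log2 fold change of 0.21. Reln, the most abundant of them, had 36.1, 39.3, 38.2 and 43.6 CPM. The collagen genes Col1a1 and Col3a1 had log2 fold changes of 0.63 and 0.59 (adjusted p = 0.580 and 0.522, edgeR's quasi-likelihood test). Kupffer cell genes summed to 136, 140, 161 and 148 CPM, and Clec4f, their C-type lectin, had 60.0, 52.5, 67.3 and 68.0 CPM. The part of these cells in the level of Spp1 was not tested.

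**Figure D4:**
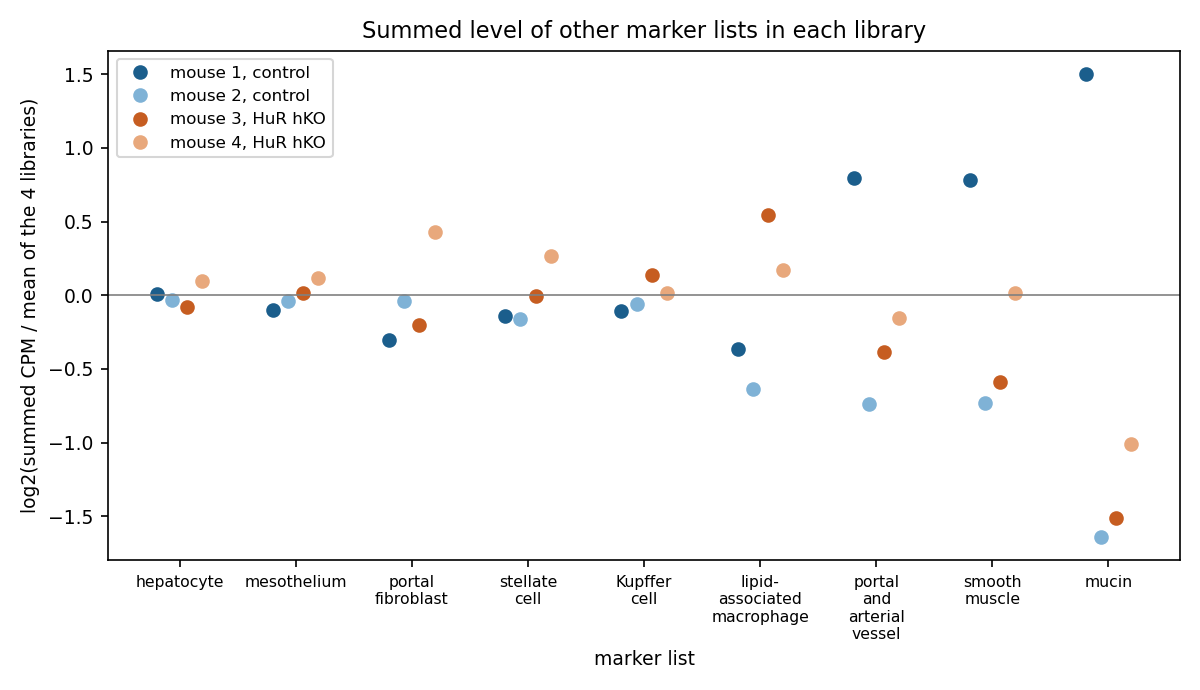
Summed CPM of each cell type list in each library, as the log2 ratio to the mean of the 4 libraries, so that 0 is the mean. Control mouse 1 is the highest library in the portal and arterial vessel, smooth muscle and mucin lists, it lies close to the mean for hepatocytes, and both hKO-labelled mice are above the controls for lipid-associated macrophages. The smooth muscle list shares Acta2 and Myh11 with the vessel list and Des with the stellate cell list.

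Genes that stood out in a single library were counted after the data had been seen, as those with at least 30 counts and at least 3 times the CPM of any other library. Control mouse 1 had 27 such genes (0.249% of 10845 with at least 30 counts), control mouse 2 had 6 (0.0554% of 10823), mouse 3 had 0 of 10978 and mouse 4 had 4 (0.0349% of 11474). The 27 genes included 2 of the 6 cholangiocyte markers, Krt19 and Krt7, and 6 of the other biliary genes, which were Cd24a, Cldn7, Dmbt1, Ehf, Elf3 and Muc1.

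The genes with the profile most like that of a marker gene were looked up over the 4 libraries, for the 3 marker genes with at least 10 counts in every library. Likeness was the root mean square difference of log2 CPM (prior count 2) after each gene was centred on its mean, among 9489 genes with at least 50 counts in every library (9488 for Spp1, itself among them). The nearest genes to Epcam were Phlda1, at a difference of 0.109, Il1r1 at 0.165 and Sparcl1 at 0.174. Phlda1 had 1629, 533, 626 and 1083 counts. The nearest to Sox9 were Ndufs4, at a difference of 0.0106, Ndufv3 at 0.0139 and H2-T22 at 0.0167, and the nearest to Spp1 were Ang at 0.0146, Tuba1c at 0.0413 and Mid1ip1 at 0.0492. A profile over 4 libraries is short, and Sox9 and Spp1 spread by only 0.172 and 0.329 (SD of log2 CPM). The intervals of Sox9 overlapped throughout, so its spread was not shown to exceed counting error. Its nearest genes therefore cannot be read as sharing a profile with it.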

How the data were processed

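Total liver RNA was isolated with a Prepito kit and libraries were made by Genewiz, per the labels. The authors deposited whole-number read counts per gene, without normalization, and their processing notes name RSEM and GRCm38. The aligner, the use of strand and any rounding of counts are not given in the sources used here. Symbols matched 46005 of 46603 identifiers, and positions and transcript lengths are from GENCODE M21.

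Counts were filtered (filterByExpr, minimum 10, total 15), scaled with TMM and tested with edgeR 4.0.16 (glmQLFit, glmQLFTest) in R 4.3.3, with Benjamini-Hochberg adjustment over 13001 genes. DESeq2 1.42.0 and limma 3.58.1 (voom) were alternatives, with other scalings, filters and leave-one-out fits. All pairs of libraries differed beyond sampling noise (chi-square per degree of freedom 21.2 to 32.7). On simulated counts of 13001 genes, 93.7% of 200 genes changed 4-fold were recovered in the comparison of hKO-labelled mice with controls, and 3.60% of the calls were unchanged genes. The simulated counts took the spread that edgeR fits for genes of a given level, with no added spread for single genes and no outlying library. They therefore do not show how often a change would be found in genes as uneven as Krt19. Intervals cover counting error only.

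The 6 marker genes and all lists were chosen with earlier results of these data known. Genes named are the 6, biliary genes with a mean of at least 1 CPM or an unadjusted p-value under 0.05, the most abundant gene of each cell type list and those with such a p-value, Elavl1, and the 3 nearest profiles. Other genes were named after their values were seen, and a gene that the rule covers is not reported here.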

Additional observations from a re-analysis of the deposited data

How the results depend on the processing

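No paired analysis was possible because the mice are numbered 1 to 4 over both groups and share no number. With all 4 libraries, 2 genes were called higher and 1 lower in the hKO-labelled mice. Higher and lower calls numbered 4 and 4 with total counts only and also with robust fitting, 80 and 81 without a filter on low counts, 1 and 1 with at least 10 counts in every library and with limma-voom, and 50 and 35 with DESeq2. Leaving out 1 library gave between 0 and 30 higher and between 0 and 43 lower calls. Of the 6 marker genes 0 were called, and between 0 and 1 with a library left out. Of the other biliary genes 0 were called, 2 without the filter, and between 0 and 3 with a library left out, and their median log2 fold change lay between -0.31 and 0.21 with a library left out. Of the cell type markers 0 were called, 1 without the filter (Mmp12), and between 0 and 1 with a library left out. With a library left out in turn, log2 fold changes ran from -3.66 to 1.63 for Krt19, from -1.17 to 0.50 for Epcam and from -0.12 to 0.28 for Sox9, and the direction turned without control mouse 1 (Krt19 1.63, Epcam 0.50, Sox9 -0.02) and without mouse 4 (Sox9 -0.12). The other scalings, filters and tests turned no direction of Krt19, Epcam, Sox9 or Spp1, although Krt19 dropped out with at least 10 counts in every library. Krt7, tested only in alternatives, had log2 fold changes between -2.05 and -1.27, all in settings that keep control mouse 1. Without that library Krt7 did not pass the filter, and its levels were 0.672 CPM in the other control and 0.558 and 0.690 CPM in mice 3 and 4. Cftr had -4.25 without the filter (adjusted p = 0.891), a value that depends on the prior count. Apart from leaving out a library or the filter, the cause of these changes was not tested. With 4 counts of Cftr and at most 13 of Krt7 outside control mouse 1, depth limits both.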

Other observations

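Of the 27 genes with at least 30 counts and at least 3 times the CPM of any other library in control mouse 1, those not yet described included further genes of epithelia. Fcgbp, a protein of mucus, had 75, 0, 6 and 7 counts in mice 1 to 4, and Shh, a secreted morphogen, had 79, 4, 9 and 6. Car9, a carbonic anhydrase, had 59, 2, 4 and 4 counts, and Slc14a1, a urea transporter, had 38, 1, 3 and 4. Adgrg7, an adhesion receptor, had 47, 0, 0 and 3 counts, and Ckmt1, a mitochondrial creatine kinase, had 68, 1, 0 and 3. Lpin1, a phosphatidate phosphatase that hepatocytes express, was by far the most abundant of the 27, with 5239, 643, 1700 and 2310 counts. In control mouse 2 the most abundant was Bcl6, a transcriptional repressor, with 131, 920, 122 and 288 counts. In mouse 4 it was Cyp2d12, with 5, 11, 8 and 78 counts.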
